A study of Homo sapiens with 6 samples.

Results

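The luminal lineage transcription factors of the mammary epithelium and the secreted protein AGR2 were examined in MDA-MB-468 cells, an established human line of a triple-negative, basal-like breast carcinoma. The 10 genes ELF5, EHF, ELF3, SPDEF, GATA3, FOXA1, TFAP2A, TFAP2C, XBP1 and AGR2 were found by gene symbol, and 8 of 10 carried a named transcript cluster (the gene-level probe set of the array), 1 cluster each. They stand among 15189 different named genes. ELF3 and TFAP2A had no cluster under their symbol and are not measured here. The genes were picked by name with their changes on these same arrays already known, so the changes below describe them. The adjusted p-values place each change against the spread between arrays and are no independent evidence.

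Both groups were transfected with TransIT-BrCa and 15 nM GapmeR and harvested after 48 h. The control group (3 samples) got a negative control sequence and the other group (3 samples) got GapmeR#4, directed at the long non-coding RNA NRAD1 (LINC00284). A GapmeR is a modified antisense oligonucleotide that leads to cleavage of a bound RNA. Total RNA of each sample was measured on 1 Affymetrix Human Gene 2.0 ST array as log2 signal, where a difference of 1 is a 2-fold difference. With 1 cell line and 1 GapmeR sequence against NRAD1, loss of this RNA and any other effect of that oligonucleotide cannot be told apart. The samples are labelled biological replicates, but separate cultures are not described. The p-values reflect only how these samples vary, which may be technical.

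Luminal cells line the ducts and alveoli of the breast. GATA3 and FOXA1 are known for the hormone-sensing luminal lineage, in which FOXA1 opens chromatin for steroid receptors. ELF5 is known for alveolar and luminal progenitor cells, where it drives milk secretion downstream of prolactin. ELF5, EHF, ELF3 and SPDEF are epithelial members of the ETS family, whose DNA-binding domain recognizes a core that starts with GGA. TFAP2A and TFAP2C belong to the AP-2 family. XBP1 is the transcription factor made by IRE1-dependent splicing in the unfolded protein response. AGR2 is a protein disulfide isomerase of the endoplasmic reticulum that is needed for mucin production in the mouse intestine.

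The promoters of ELF5, SPDEF and AGR2 are shown because these genes had the largest changes among the 8. Each sequence holds the 250 bases before the annotated start from RefSeq (GRCh38.p14), read 5′ to 3′ on the strand of the gene. GGAAG or its reverse complement CTTCC, a form of the ETS core, is in capitals. The windows are chr11:34511725-34511974 for ELF5, chr6:34556330-34556579 for SPDEF and chr7:16805000-16805249 for AGR2, all on the minus strand.
ELF5: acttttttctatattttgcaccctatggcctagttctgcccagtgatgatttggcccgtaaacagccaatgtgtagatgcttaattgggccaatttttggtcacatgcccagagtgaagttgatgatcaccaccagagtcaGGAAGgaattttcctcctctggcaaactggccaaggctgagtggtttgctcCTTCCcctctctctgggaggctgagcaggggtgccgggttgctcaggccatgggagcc
SPDEF: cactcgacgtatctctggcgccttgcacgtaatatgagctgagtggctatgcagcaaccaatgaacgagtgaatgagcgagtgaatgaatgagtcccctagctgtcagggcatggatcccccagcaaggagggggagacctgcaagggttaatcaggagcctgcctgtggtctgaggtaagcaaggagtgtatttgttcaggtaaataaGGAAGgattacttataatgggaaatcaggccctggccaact
AGR2: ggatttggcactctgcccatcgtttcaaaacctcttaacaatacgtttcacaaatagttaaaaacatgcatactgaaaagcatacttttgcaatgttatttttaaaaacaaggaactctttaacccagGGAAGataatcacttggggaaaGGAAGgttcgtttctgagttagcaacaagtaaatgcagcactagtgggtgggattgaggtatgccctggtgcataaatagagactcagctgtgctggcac

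The motif GGAAG stood at 2 places before ELF5, 1 before SPDEF and 2 before AGR2, searched on both strands. It was in 65.1% of 35116 promoter windows of the same length, so its presence does not set these genes apart. ETS cores continued by other bases also stand in the printed sequences and were neither marked nor counted. The FOXA motif GTAAACA stood before ELF5, 193 to 187 bases from the start, and was in 2.98% of windows. The GATA motif AGATAA stood before AGR2 at 119 to 114 bases, where it overlaps a GGAAG motif, and was in 9.17% of windows. The motif ACGTG, a core bound by XBP1, stood before SPDEF at 225 to 221 bases and was in 18.5% of windows. The AP-2 motif GCCNNNGGC was in none of the 3 windows printed and in 19.8% of all. TFAP2C was the only one of the 10 genes with no window in the table used here. A match of letters is a description and no measured binding site.

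After GapmeR#4, limma placed 1.42% of the 53617 transcript clusters lower and 1.15% higher at an adjusted p under 0.05. The array medians lay between 3.957 and 4.005. NRAD1 gave 3.43, 3.46 and 4.01 under control GapmeR and 2.96, 2.99 and 2.90 under GapmeR#4, and the groups did not overlap (exact permutation test, 2-sided, p = 0.1, the smallest that 3 against 3 allow). Its log2 change was -0.69 (standard error 0.17, adjusted p = 0.0908 from limma). All but 1 of these values lay below the array medians, so the size of this change is uncertain. Of 24 cell type markers, 13 were measured. EPCAM, KRT8, KRT18 and KRT19 of epithelial cells and EGFR, KRT5 and VIM of the basal-like line had control means above every array median. The progesterone receptor gene PGR, DCN and LUM of fibroblasts and PECAM1 of endothelium were below, while ESR1 (4.11) was close to it and CD68 (6.94) was above. None of these markers passed an adjusted p under 0.05 from limma.

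Among the 8 measured genes, limma called ELF5 and AGR2 lower (adjusted p under 0.05) and none higher, beside the 1.42% and 1.15% of all transcript clusters. ELF5 had the largest change, a signal 1.85-fold lower after GapmeR#4. SPDEF, XBP1 and EHF did not pass, though their highest GapmeR#4 value lay below their lowest control value, and GATA3 had the mirror image of this layout. An unadjusted p under 0.05 from limma was reached by 5 of 8 in the lower direction and by GATA3 in the higher one, beside 8.13% and 8.68% of all transcript clusters. FOXA1 and TFAP2C overlapped between the groups. In all, 5 of 8 genes had groups fully apart in the lower direction and 1 of 8 in the higher one, where 10.8% and 12.2% of all transcript clusters did so. The median log2 change of the 8 genes was -0.40, and that of all transcript clusters was 0.02. The genes were chosen with this contrast known, so nothing is read from these counts. The summed signal of the 4 epithelial markers moved the same way, from 12.20 to 12.25 in controls down to 12.06 to 12.17 after GapmeR#4, and that of the 3 basal markers from 10.67 to 10.87 down to 10.38 to 10.52 (log2 of the sums). Of the epithelial markers, KRT19 was lower on all GapmeR#4 arrays (log2 change -0.50), while EPCAM (-0.007), KRT8 (-0.16) and KRT18 (-0.08) overlapped between the groups. KRT18 has 2 named transcript clusters and VIM has 3, and only the brightest of each was used. EGFR and KRT5 were lower on all GapmeR#4 arrays, and VIM had a positive log2 change (0.26, from 6.71 to 6.96) with overlapping groups. EGFR, the brightest of the 3 basal markers, weighs most in their sum. The part of this in the changes of the luminal genes was not tested. The summed fibroblast markers DCN and LUM overlapped between the groups (2.66 to 3.14 and 2.90 to 3.21). In RNA from whole cultures, fewer cells of a type and less RNA per cell cannot be told apart.

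**Figure D1:**
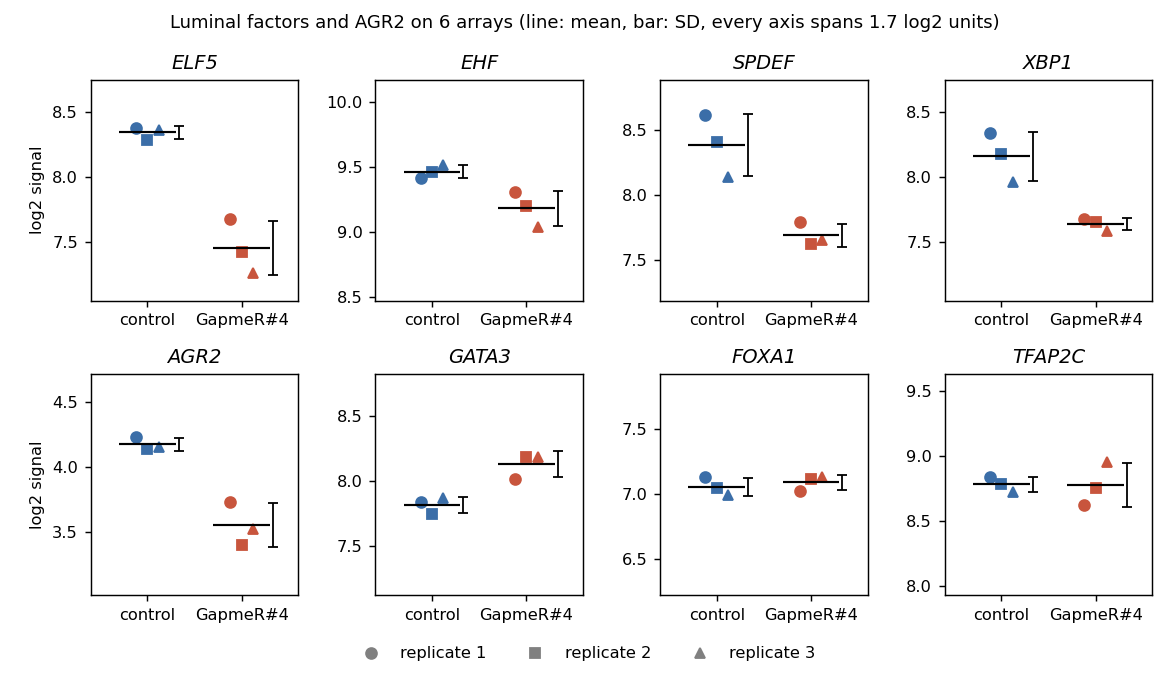
Log2 signal of the 8 measured genes on each array (points, shaped by replicate number), with the group mean (line) and SD (bar), control GapmeR at left and GapmeR#4 at right. The GapmeR#4 arrays lie below all control arrays for ELF5, EHF, SPDEF, XBP1 and AGR2 and above them for GATA3, and the groups overlap for FOXA1 and TFAP2C.

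ELF5, the ETS factor of milk-secreting and luminal progenitor cells, gave 8.38, 8.28 and 8.36 under control GapmeR and 7.68, 7.42 and 7.26 under GapmeR#4 (log2 signal). All GapmeR#4 arrays were low and the groups lay apart by more than the range of either. The signal went from 8.34 ± 0.05 (SD, n = 3) to 7.45 ± 0.21 (SD, n = 3), and the log2 change of -0.89 had a 95% interval of -1.19 to -0.59 (adjusted p = 0.0231 from limma). This placed ELF5 at 259 of 16428 named transcript clusters when ordered from the largest decrease. ELF5 no longer passed when control replicate 1, 2 or 3 or GapmeR#4 replicate 2 or 3 was left out (adjusted p = 0.0668 to 0.0914 from limma), and still passed without GapmeR#4 replicate 1 (adjusted p = 0.0379).

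EHF, a second epithelial ETS factor, is the next protein-coding gene to ELF5 on chromosome 11. It gave 9.41, 9.46 and 9.51 under control GapmeR and 9.31, 9.20 and 9.04 under GapmeR#4 (log2 signal). The groups did not overlap, but the nearest arrays were close. The log2 change of -0.28 had a 95% interval of -0.54 to -0.03 (adjusted p = 0.251 from limma). Within each array the signal of ELF5 minus that of EHF was -1.04, -1.18 and -1.15 in controls and -1.63, -1.78 and -1.77 after GapmeR#4. The gap between these neighbouring genes thus widened by 0.61 on the log2 scale, more than the SD of either group (0.07 and 0.08), which describes an unequal change of the pair.

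SPDEF, the ETS factor of secretory and goblet cells, gave 8.61, 8.40 and 8.14 under control GapmeR and 7.79, 7.62 and 7.65 under GapmeR#4 (log2 signal). Control replicate 3 was the lowest control and still above every GapmeR#4 array. The signal went from 8.38 ± 0.24 (SD, n = 3) to 7.69 ± 0.09 (SD, n = 3), a 1.62-fold lower level. The log2 change was -0.70, with a 95% interval of -1.03 to -0.37, and its adjusted p of 0.0542 from limma fell just outside the threshold. SPDEF came inside it when dim clusters were left out (adjusted p = 0.0234), with an intensity trend and robust prior together (0.0236) and with array weights (0.0331).

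AGR2, which like SPDEF is known from mucus-secreting cells, gave 4.23, 4.13 and 4.16 under control GapmeR and 3.73, 3.40 and 3.53 under GapmeR#4 (log2 signal). Controls were tightly placed, and all GapmeR#4 arrays were lower. The log2 change was -0.62, with a 95% interval of -0.89 to -0.35, and the adjusted p of 0.0444 from limma lay just inside the threshold. The control signal was close to the array medians and the signal on all 3 GapmeR#4 arrays was below them, so the size of the change is uncertain. AGR2 no longer passed without any 1 of the 6 arrays (adjusted p = 0.0616 to 0.143). Its neighbour and paralog AGR3 had a mean of 1.46 in controls and 1.49 after GapmeR#4, far below the array medians.

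XBP1, the factor of the unfolded protein response and of secretory cells, gave 8.33, 8.17 and 7.96 under control GapmeR and 7.67, 7.65 and 7.58 under GapmeR#4 (log2 signal). The groups did not overlap, and most of the spread lay among the controls. The log2 change was -0.52 (95% interval -0.81 to -0.23, adjusted p = 0.0802 from limma). XBP1 passed with an intensity trend and robust prior together (adjusted p = 0.0357) and with dim clusters left out (adjusted p = 0.034). A signal over the whole gene does not separate spliced from unspliced XBP1 RNA.

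GATA3, the zinc finger factor of luminal identity, went the other way. It gave 7.84, 7.75 and 7.87 under control GapmeR and 8.01, 8.19 and 8.19 under GapmeR#4 (log2 signal). Every GapmeR#4 array was higher, by a log2 change of 0.31 (95% interval 0.07 to 0.55, adjusted p = 0.184 from limma). The antisense RNA GATA3-AS1 was measured by a pair of transcript clusters, with log2 changes of 0.34 (adjusted p = 0.329) and -0.05 (adjusted p = 0.943), and both lay in the lower range of signals (control means 3.80 and 2.41).

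FOXA1, the pioneer factor of steroid receptor sites, gave 7.13, 7.04 and 6.99 under control GapmeR and 7.02, 7.11 and 7.13 under GapmeR#4 (log2 signal). The groups overlapped, and the 95% interval of the log2 change of 0.03 ran from -0.19 to 0.26. TFAP2C, the AP-2 factor of luminal cells, gave 8.84, 8.78 and 8.72 under control GapmeR and 8.62, 8.75 and 8.95 under GapmeR#4. Its interval was -0.28 to 0.27 around -0.01. The direction of TFAP2C turned when control replicate 1 or GapmeR#4 replicate 1 or 2 was left out. A change of the size measured for ELF5 lies outside both intervals. Of the unmeasured TFAP2A only the antisense RNA TFAP2A-AS1 had a named cluster, and it did not pass (-0.26, adjusted p = 0.385).

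**Figure D2:**
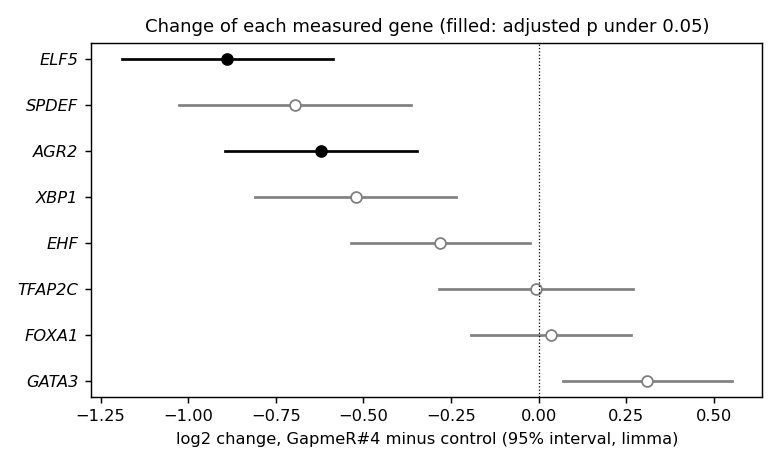
Log2 change (GapmeR#4 minus control, x axis) of the 8 measured genes with 95% intervals from limma, with filled points for an adjusted p under 0.05. ELF5 (-0.89) and AGR2 (-0.62) are filled, SPDEF (-0.70) is open, and the intervals of FOXA1 and TFAP2C span 0.

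The 8 genes differed in their spread within a group, given here as a description. SPDEF and XBP1 were spread among the controls, with ranges of 0.48 and 0.38 on the log2 scale, and close together after GapmeR#4, with ranges of 0.17 and 0.09. In both genes control replicate 1 was the highest and control replicate 3 the lowest. The same order held in FOXA1 and TFAP2C, with smaller control ranges of 0.13 and 0.12. ELF5, EHF, AGR2 and TFAP2C had the opposite layout of ranges. Their control ranges were 0.09, 0.10, 0.10 and 0.12, and their GapmeR#4 ranges 0.41, 0.27, 0.33 and 0.33. GapmeR#4 replicate 1 was the highest of its group in SPDEF, XBP1, ELF5, EHF and AGR2. In GATA3, FOXA1 and TFAP2C it was the lowest. The labels name no batch, and these layouts were not tested.

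**Figure D3:**
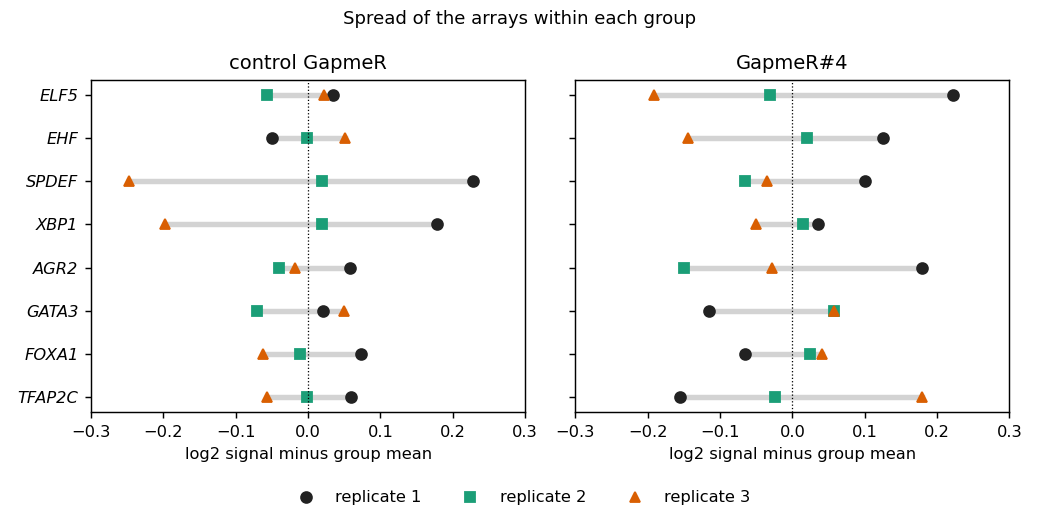
Log2 signal of each array minus its group mean (x axis) for the 8 genes, control GapmeR at left and GapmeR#4 at right, with the gray bar as the range. SPDEF and XBP1 are widest among controls (0.48 and 0.38), and ELF5 (0.41), TFAP2C (0.33) and AGR2 (0.33) are widest after GapmeR#4.

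Profiles were compared by the Euclidean distance between log2 values centred on their mean over the 6 arrays, as a description with no test. Of the 28 pairs among the 8 genes, FOXA1 and TFAP2C were nearest (0.18), followed by SPDEF and XBP1 (0.25) and SPDEF and AGR2 (0.33). ELF5 and GATA3 were farthest apart (1.53). Among all other named transcript clusters, BBOF1 (0.07), LINC00467 (0.07) and BCKDHB (0.09), a subunit of the branched-chain ketoacid dehydrogenase, were nearest to ELF5. Nearest to SPDEF were the ETS factor ETV4 (0.11), the pseudokinase PTK7 (0.11) and GTPBP2 (0.15). Nearest to AGR2 were UQCC1 (0.09), an assembly factor of respiratory complex III, RIN2 (0.12) and the ubiquitin ligase RNF144B (0.15). Both groups enter these distances, so they mostly carry the size and direction of the change.

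Genes of related families and cell states were then taken as lists. Their counts of calls stand against the 1.42% lower and 1.15% higher of all transcript clusters. Their counts at an unadjusted p under 0.05 from limma stand against 8.13% lower and 8.68% higher. Their counts of negative changes stand against 45.9% of all transcript clusters and 49.8% of the named ones. Of all clusters 37189 had no name, and shares of calls among clusters of like brightness were not computed. The brighter 50% of clusters tested alone gave more calls, 1466 lower and 1282 higher, against 760 and 614. Transcript clusters that the platform annotation leaves blank could be named only from supplementary lists of genes reported as changed, either on these arrays (SLC34A2, ID4 and MUC16) or in a separate ALDH1A3 knockdown (TP63 and CAV1; ID4 is in both). SLC34A2, ID4 and MUC16 were thus measured because they changed here. Lists that hold any of these 5 genes are counted without them. Of 20 other ETS factors measured, ETV4 was the only one lower at an adjusted p under 0.05 and none was higher (median log2 change -0.15, 15 negative). ETV4, a PEA3 factor downstream of receptor tyrosine kinases, gave 6.52, 6.32 and 6.16 under control GapmeR and 5.77, 5.65 and 5.63 under GapmeR#4 (log2 change -0.65, adjusted p = 0.0451 from limma). ELF4 (-0.48, adjusted p = 0.0752) and ETV5 (-0.56, adjusted p = 0.0989) did not pass. Among the 10 other FOXA, GATA and AP-2 factors none passed in either direction (median -0.02, 5 negative). An unadjusted p under 0.05 from limma was reached by 2 of them, GATA6 with 0.37 and GATA1 with -0.25. Of 22 other transcription factors of mammary epithelium, STAT5B was lower and KLF4 was higher (median -0.06, 14 negative). STAT5B, a mediator of prolactin signals, fell by 0.66 on the log2 scale (adjusted p = 0.0411 from limma). KLF4 rose by 0.54 (adjusted p = 0.0451). The grainyhead factor GRHL2 did not pass (-0.44, adjusted p = 0.109).

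Of 20 luminal epithelial genes, 1 was lower and none was higher, and 17 had a negative log2 change (median -0.14). The lower one was CLDN4, a tight junction claudin, at 6.723, 6.624 and 6.001 under control GapmeR and 5.271, 5.386 and 5.503 under GapmeR#4 (log2 change -1.06, adjusted p = 0.0434 from limma). The claudins CLDN3 (-0.75, adjusted p = 0.0844) and CLDN7 (-0.76, adjusted p = 0.0968) did not pass, with all GapmeR#4 values below the controls. Of 16 luminal progenitor and milk secretion genes named by the annotation, 1 was lower and 1 was higher (median -0.05, 8 negative). The lipocalin LCN2 fell by 0.71 on the log2 scale (adjusted p = 0.0238 from limma). XDH, the xanthine dehydrogenase that is also part of the milk fat globule, rose by 1.27 (adjusted p = 0.0234) from control signals close to the array medians, so the size of this rise is uncertain. The phosphate transporter SLC34A2, outside this count, had a log2 change of -1.34 (adjusted p = 0.0079), and with it 2 of 17 were lower (median -0.11). Of 15 basal and myoepithelial genes named by the annotation, none passed in either direction with limma (median -0.02, 8 negative). An unadjusted p under 0.05 from limma was reached by 5 of them, lower for KRT5, EGFR and MME and higher for OXTR and TRIM29. That count was 8 of the 20 luminal epithelial genes and 6 of the 16 luminal progenitor genes. It was 5 of 20 other ETS factors and 6 of 22 other mammary factors above, and 4 of 9 and 6 of 26 in the isomerase and secretory lists below. With TP63, CAV1 and ID4 the median of the 18 basal and myoepithelial genes was 0.07 and TP63 alone passed. TP63, the master regulator of basal cells, gave 4.23, 4.28 and 4.29 under control GapmeR and 5.07, 4.76 and 4.87 under GapmeR#4, a rise of 0.63 (adjusted p = 0.0393). Its control signals were not far above the array medians, so the size of this rise is uncertain. ID4 (0.86, adjusted p = 0.0547) and the membrane peptidase MME (-0.41, adjusted p = 0.0848) did not pass.

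Lists around XBP1 and AGR2 covered protein folding and secretion. Of 9 measured members of the protein disulfide isomerase family, ERP27 was lower and none was higher (median 0.003, 4 negative). ERP27, a non-catalytic member, fell by 0.83 on the log2 scale (adjusted p = 0.0406 from limma), while TXNDC11 had -0.38 (adjusted p = 0.0903) and TMX1 had 0.35 (adjusted p = 0.193). Of 26 genes of the unfolded protein response and secretory pathway, 2 were lower and none was higher (median -0.13, 18 negative). The lower ones were KDELR3, a receptor that retrieves proteins to the endoplasmic reticulum, at -0.98 (adjusted p = 0.0187), and SPCS3, a subunit of the signal peptidase, with -0.97 (adjusted p = 0.0226). ARFGAP3 had -0.33 (adjusted p = 0.145). Of 24 mucins and goblet cell genes listed, 6 were named by the annotation, and none of these passed in either direction with limma. Their median was -0.02, with 3 negative and 1 at an unadjusted p under 0.05 from limma. GALNT7 had -0.28 (adjusted p = 0.249) and GALNT12 had 0.32 (adjusted p = 0.347). The mucin MUC16, outside this count, had a log2 change of -1.13 (adjusted p = 0.0126), and with it the median of 7 was -0.12. Reference genes of quantitative PCR had log2 changes of -0.19 for ARF1, 0.08 for B2M and -0.02 for GAPDH, with none of 3 passing in either direction (none at an unadjusted p under 0.05).

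**Figure D4:**
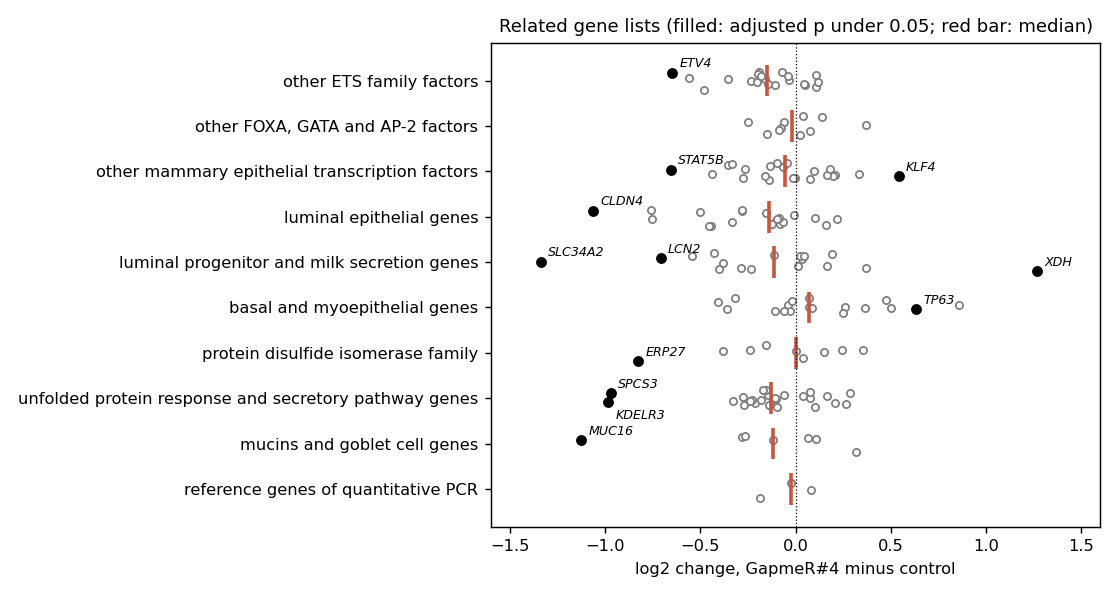
Log2 change (GapmeR#4 minus control, x axis) of every measured gene of 10 related lists, filled and named at an adjusted p under 0.05 from limma, with the list's median as a red bar. The medians lie between -0.15 and 0.07, and the filled genes, 1 to 3 in the lists that have any, lie on the lower side apart from KLF4, XDH and TP63. SLC34A2, TP63, CAV1, ID4 and MUC16, named only from lists of changed genes, are drawn and enter these medians.

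These calls depended on single arrays and on the test. Of the 14 genes with an adjusted p under 0.05 above, ELF5 and AGR2 included, none passed the methods' t-test after Benjamini-Hochberg adjustment. SLC34A2 and MUC16, which could be named only because they changed on these arrays, are among the 14, so their passing below is no independent evidence. ETV4 was lost with quantile normalization (adjusted p = 0.0503 from limma), and ETV4 (0.0505) and KLF4 (0.0533) were lost with each array centred on its median. Of the 14, 2 were still called when control replicate 1 was left out, 0 in the absence of control replicate 2 and 4 in that of control replicate 3. The same count was 5 in the absence of GapmeR#4 replicate 1, 2 for replicate 2 and 3 for replicate 3. In the fit that pairs arrays of the same number as blocks, only SLC34A2, named because it changed here, passed (adjusted p = 0.0478 from limma). ELF5 had an adjusted p of 0.0712 in that fit.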

How the data were processed

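Whole-culture RNA of 3 control GapmeR and 3 GapmeR#4 samples of MDA-MB-468 was hybridized to Human Gene 2.0 ST arrays. The log2 signals of 53617 transcript clusters were deposited by the authors, who used Affymetrix Expression Console (normalization and version: not given in the sources used here), and they were taken unchanged. The number of arrays limits the precision. The 10 genes and the 10 related lists were chosen with earlier results of these data known. Symbols came from the platform annotation (16098 transcript clusters) or, where blank, from Supplemental File 2 (330), which lists genes reported as changed on these arrays or after ALDH1A3 knockdown. Lists that hold such names were also counted by the annotation alone, chosen after seeing the data. A list gene or cell type marker counts by its brightest transcript cluster. Every cluster was tested with limma 3.58.1 in R 4.3.3 (2 groups, no block, 2-sided, Benjamini-Hochberg over all clusters). The limma script was first tested on simulated data. Named genes are the 10 genes, NRAD1, the 3 smallest p-values of each list, every called list gene and the 3 nearest profiles of ELF5, SPDEF and AGR2. GATA3-AS1, TFAP2A-AS1, AGR3, the cell type markers and any other gene were named after their values were seen. Alternatives were a filter on dim clusters, an intensity trend with a robust prior and a plain t-test with Benjamini-Hochberg adjustment. Further ones were other scaling, a replicate block, array weights, the mean over clusters, and leaving out each array. Replicate numbers were checked as pairs. Positions are printed for RefSeq promoters alone.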

Additional observations from a re-analysis of the deposited data

How the results depend on the processing

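At an adjusted p under 0.05, 760 transcript clusters were lower and 614 were higher. The brighter 50% of clusters gave 1466 and 1282, and an intensity trend with a robust prior 1273 and 1176. The plain t-test with Benjamini-Hochberg adjustment gave 4 and 8, and the replicate block 35 and 55. With 1 array left out, the lower ones numbered 23 to 236 and the higher ones 44 to 269, and control replicate 2 was the array whose absence left the smallest numbers. Of the 8 luminal genes, 2 were lower, against 3 in the brighter 50% and 4 with the trend and robust prior. The count was 0 by the adjusted plain t-test, 0 with the replicate block and 0 to 1 with 1 array left out. None was higher under any setting, and median centring, quantile normalization, array weights and the mean over clusters gave 2 or 3 lower. ELF5, SPDEF, AGR2, EHF, XBP1, GATA3 and FOXA1 kept their direction under every setting that gave a value. AGR2 is not among the brighter 50%. TFAP2C turned to 0.021 without control replicate 1, to 0.070 without GapmeR#4 replicate 1 and to 0.0044 without GapmeR#4 replicate 2 (range with 1 array left out, -0.098 to 0.070), and GAPDH turned to 0.0021 without GapmeR#4 replicate 2 (range -0.047 to 0.0021). The cause of these differences was not tested. Deviations of same-numbered arrays correlated at -0.06, -0.005 and -0.02, and those of differently numbered arrays at -0.04 to 0.06. No shared deviation was seen, but so few arrays cannot show whether the cultures were paired. NRAD1, like AGR2 too dim for the brighter 50%, stayed lower and short of the threshold under the 12 settings that gave it a value (log2 change -0.79 to -0.50). Names from the annotation only, an alternative chosen after seeing the data, took the lower luminal progenitor genes from 2 to 1, the higher basal genes from 1 to 0 and the lower mucin genes from 1 to 0.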
